A study of Mus musculus with 4 samples.

Results

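The genes described here are 10 signals and receptors of blood vessel growth, of the 32285 genes listed for each library: the growth factors Vegfa, Vegfb, Vegfc and Pgf, the receptors Kdr and Flt1, the co-receptors Nrp1 and Nrp2, and the vessel-acting peptides Adm and Angpt2. They were chosen by symbol, and all 10 were found. The 4 single-cell RNA-Seq libraries came from the fracture callus and from trabecular bone of male C57BL/6J mice, 20 weeks of age. For each tissue there was 1 library from placebo-treated mice (control) and 1 from mice given the glucocorticoid prednisolone at 6.25 mg/kg/d (GC), collected at week 2. The labels describe a subcutaneous slow-release pellet for all 4 libraries, whereas the study describes a pellet for bone loss and daily injection for the fracture, and the number of mice behind a library is not stated. Cells were released from marrow plugs and crushed bone with collagenase, dispase and DNase, so the libraries hold what left the tissue in digestion.

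After filtering, callus gave 6705 control and 6890 GC cells, with medians of 4180 and 3257.5 UMIs, and trabecular bone gave 3803 and 4602 cells, with medians of 6322 and 5592 UMIs (unique molecular identifiers, each a counted RNA molecule). Libraries shared 6 to 10 barcodes pairwise. The cells were placed in classes by marker genes, after clustering that left out the 10 genes. Levels are in CPM, a gene's UMIs per 1000000 UMIs of the class. They count transcript ends, so they compare 1 gene between classes and not 2 genes with each other. With 1 library per condition there is no replicate error and no test, and every interval in brackets is a 95% interval for counting error alone. Fewer cells of a type and less RNA per cell cannot be told apart in a library total.

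Vegfa binds Kdr, the receptor that passes most of the growth signal to endothelial cells, and Flt1, which binds the ligand tightly and can act as a decoy. Vegfb and Pgf bind Flt1 but not Kdr, and Vegfc acts mainly through Flt4 on lymphatic vessels. Nrp1 and Nrp2 hold the ligands for the receptors and also bind semaphorins. Adrenomedullin, the product of Adm, acts on Calcrl paired with a Ramp protein and keeps vessels tight and dilated, whereas Angpt2 opposes Angpt1 at the receptor Tek and loosens vessels for sprouting. In healing bone, hypertrophic cartilage is a known source of Vegfa that draws vessels into the callus. Low oxygen induces Vegfa and Adm through hypoxia-inducible factor, and glucocorticoids are known to lower Vegfa in several cell types.

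In build GRCm38, Vegfa lies at chr17:46016993-46032369 on the minus strand and Pgf at chr12:85166635-85177790 on the minus strand, and Adm, the shortest of the 10 genes, at chr7:110627661-110629820 on the plus strand. Kdr (chr5:75932827-75978458) and Flt1 (chr5:147561604-147726011) share a chromosome and the minus strand. Vegfc, Nrp1 and Angpt2 lie on chromosome 8, Vegfb on 19 and Nrp2 on 1. The 250 bases before the start of Vegfa, Pgf and Adm (RefSeq, GRCm38.p6, 5′ to 3′ on the gene's strand) are printed because cartilage carried most of the transcripts of these ligands. The windows lie at chr17:46032378-46032627 (minus strand), chr12:85177314-85177563 (minus strand) and chr7:110627407-110627656 (plus strand). RefSeq and GENCODE starts differ, and the Pgf window, before a RefSeq start, lies inside the GENCODE gene given above. Capitals mark the core of the hypoxia response element, ACGTG or GCGTG on either strand.
Vegfa: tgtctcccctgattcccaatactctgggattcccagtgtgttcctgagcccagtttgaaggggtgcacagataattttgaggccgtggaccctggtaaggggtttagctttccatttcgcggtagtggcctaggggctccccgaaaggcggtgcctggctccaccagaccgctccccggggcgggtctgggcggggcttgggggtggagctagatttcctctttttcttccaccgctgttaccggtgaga
Pgf: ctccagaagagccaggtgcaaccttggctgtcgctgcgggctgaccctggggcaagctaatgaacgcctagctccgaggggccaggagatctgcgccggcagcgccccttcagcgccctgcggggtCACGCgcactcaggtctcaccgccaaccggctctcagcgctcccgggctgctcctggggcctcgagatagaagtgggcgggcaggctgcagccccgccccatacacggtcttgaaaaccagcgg
Adm: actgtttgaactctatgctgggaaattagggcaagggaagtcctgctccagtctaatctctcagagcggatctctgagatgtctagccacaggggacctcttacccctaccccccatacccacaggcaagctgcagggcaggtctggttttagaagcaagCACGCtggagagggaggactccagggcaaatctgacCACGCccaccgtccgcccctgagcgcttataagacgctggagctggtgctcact

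The Adm window held 2 matches, whose first bases lay 90 and 54 bases before the start, and the Pgf window held 1, at 124 bases. The Vegfa window held none. Of the 10 genes, 9 had an entry in the promoter table (Angpt2 had none), and 7 of the 9 windows held a match, against 38.6% of 32851 windows of the same length. The windows of these 9 genes held 56.8% to 76.4% G and C, and a GC box (GGGCGG, either strand) was in 9 of 9, against 32.7% of all. The glucocorticoid receptor half-site AGAACA was in 0 of 9 windows, against 16.1% of all, and the paired site ACANNNTGT in 0 of 9, against 5.84%. These are matches of letters in a short window.

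In callus, the ligand Vegfa was highest in cartilage. Hypertrophic chondrocytes held 1126 CPM over both libraries (1110 to 1143), chondrocytes 653 CPM and osteoblasts or osteocytes 435 CPM. Stromal progenitors followed at 334 CPM, osteoclasts held 168 CPM and endothelial cells 49.96 CPM. Cartilage cells of both classes were 39.2% of the cells and carried 87.0% of all Vegfa UMIs (86.8% to 87.3%). They also carried most UMIs of all genes, so the share of cells is no base for a share of UMIs. Chondrocytes held 51032667 of 79813451 UMIs in control and 30328157 of 54486010 in GC. Hypertrophic chondrocytes held 10037580 and 5620437. Vegfa was also high in blood-lineage cells. Natural killer (NK) or innate lymphoid cells held 491 CPM, the class named monocytes 461 CPM, mature neutrophils 299 CPM and C1q macrophages 291 CPM, whereas T cells held 95.6 CPM and B cells 66.7 CPM. Of the 2178 Vegfa UMIs of the monocyte class 2062 lay in cluster 3. That cluster passed 8 of 8 monocyte markers. However, its top 10 genes held the immature neutrophil marker Chil3 and no monocyte marker, so its name was treated as uncertain. The counting intervals of NK cells, monocytes and osteoblasts overlapped in that order, as did those of stromal progenitors, mature neutrophils and C1q macrophages, whereas the step from hypertrophic chondrocytes to chondrocytes was 1.73-fold with intervals apart. Vegfa was at 677 CPM in the empty droplets of control callus, above most classes of cells, while the B cells of the same library held 65.3 CPM.

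Every cell with at least 1000 UMIs was thinned to 1000, and cells below that were left out of all thinned values. Of the thinned cells, 59.0% of hypertrophic chondrocytes and 45.2% of chondrocytes held a Vegfa UMI, against 6.29% of B cells. Without thinning these shares were 80.4%, 90.9% and 10.6% over all cells of each class, at median depths of 13836, 18336.5 and 1794.5 UMIs. Mature neutrophils were near the depth of B cells, with a median of 1200 UMIs, and 21.6% of those thinned held Vegfa.

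Adm, the vasodilator peptide, was the member most confined to cartilage, which carried 93.4% of its UMIs (92.7% to 94.1%). It was at 78.6 CPM in hypertrophic chondrocytes, 41.2 CPM in chondrocytes and 21.5 CPM in osteoblasts, and B cells held 16.0 CPM, with 1.28% of thinned B cells holding a UMI against 6.31% of hypertrophic chondrocytes. Pgf, the ligand of Flt1, was highest in endothelial cells at 109 CPM (88.2 to 134), followed by osteoclasts at 32.1 CPM and hypertrophic chondrocytes at 25.0 CPM. Because cartilage cells were many and deeply sequenced, they still carried 76.4% of the Pgf UMIs. Osteoclasts were 1.71% of the cells but carried 40.1% of the Vegfc UMIs (24.5% in control and 52.9% in GC), 38.9% of the Angpt2 UMIs and 25.8% of the Vegfb UMIs, of which cartilage carried 53.7%. Vegfc was at 30.9 CPM in endothelial cells and 20.5 CPM in osteoclasts, with overlapping intervals. Vegfb was at 66.0 CPM in osteoclasts, 2.30-fold above the next class, plasma cells. Angpt2 was at 105 CPM in endothelial cells and 37.9 CPM in osteoclasts, and at 12.5 CPM in mature neutrophils.

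**Figure D1:**
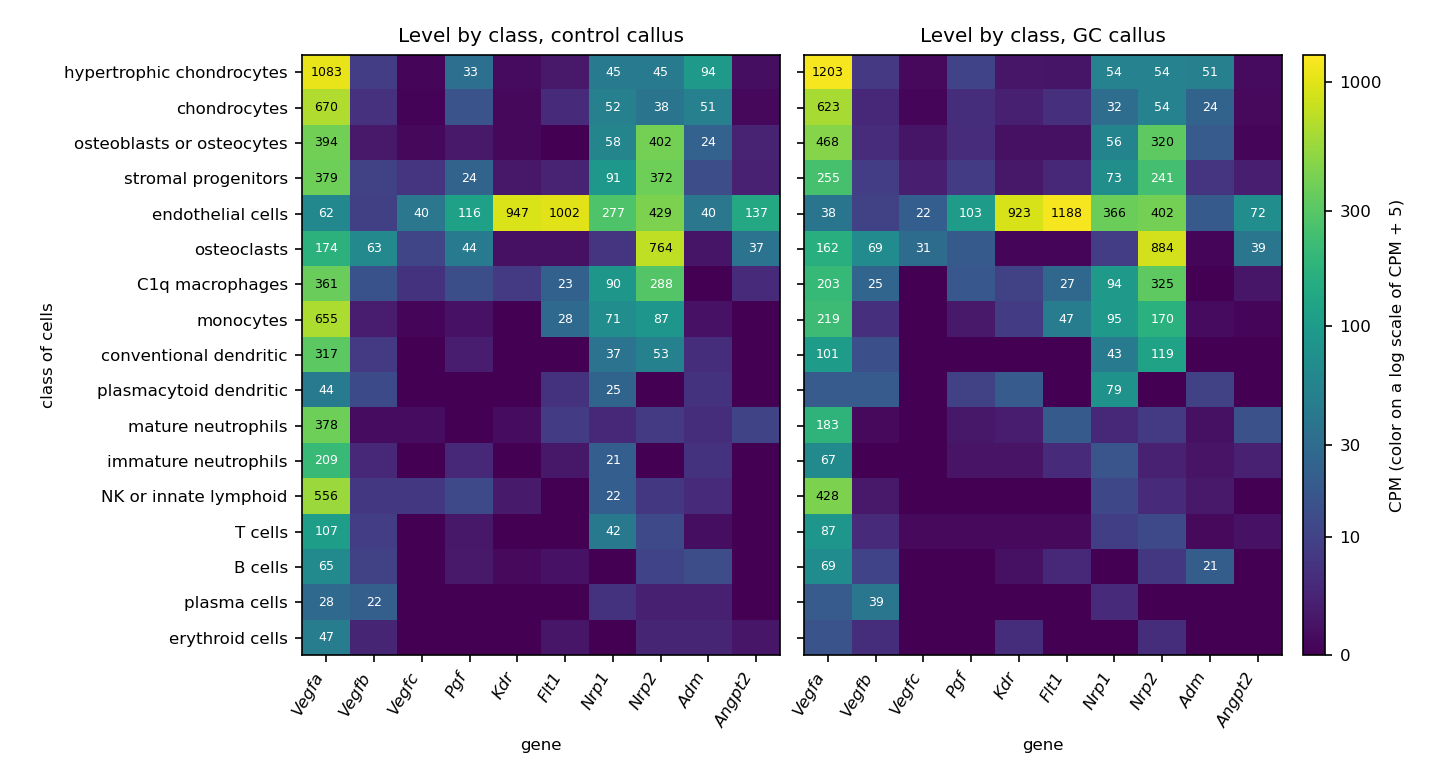
Level of the 10 genes (columns) in 17 classes of callus cells (rows), in control on the left and GC on the right. Color gives CPM on a log scale of CPM + 5, and levels of at least 20 CPM are printed. Vegfa is seen in most rows, Kdr and Flt1 are highest in the endothelial row, at 923 to 1188 CPM, with Flt1 also above 20 CPM in monocytes and C1q macrophages, and Nrp2 is highest in osteoclasts in both libraries.

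The receptors had the reverse layout. Endothelial cells were 0.978% of callus cells and carried 74.2% of the Kdr UMIs (71.4% to 76.8%) and 50.9% of the Flt1 UMIs (48.6% to 53.3%). Kdr was at 935 CPM in endothelial cells, and Flt1 at 1094 CPM there and at 36.6 CPM in the monocyte class, the next, where cluster 3 held 138 of its 173 UMIs. Of the 133 endothelial cells, 126 held a UMI of Kdr or Flt1 and 107 held both. After thinning 62.0% held Kdr and 67.8% Flt1, against 0 of 938 B cells for Kdr, which allows up to 0.392%, and 0.107% for Flt1. Without thinning these shares were 85.0% and 90.2% of endothelial cells, at a median of 4422 UMIs. All 10 endothelial markers were detected in that class. Chondrocytes, with their many UMIs, held 407 of the 1806 Flt1 UMIs at 5.00 CPM.

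Both co-receptors were high in endothelial cells, stromal progenitors and C1q macrophages, and osteoclasts held Nrp2 with little Nrp1. Nrp1 was highest in endothelial cells at 321 CPM (284 to 362), with C1q macrophages at 91.6 CPM, stromal progenitors at 84.6 CPM and monocytes at 82.1 CPM, and B cells held 0 UMIs. Nrp2 was highest in osteoclasts at 823 CPM (796 to 850), where Nrp1 was at 7.78 CPM. Endothelial cells followed at 415 CPM, osteoblasts at 356 CPM, stromal progenitors at 325 CPM and C1q macrophages at 304 CPM, each with an interval that overlapped the next. After thinning 52.4% of osteoclasts held an Nrp2 UMI, against 0.320% of B cells, and without thinning 95.7% and 1.48%. Osteoclasts held 4 UMIs each of Kdr and Flt1.

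GC and control callus were compared within 16 classes, on the log2 ratio of CPM + 5 for genes with at least 50 UMIs over both libraries. Of 160 pairs of a class and a gene, 45 had enough UMIs, and 9 were past 2-fold, 2 higher and 7 lower in GC, where 0.875% (chondrocytes) to 11.3% (immature neutrophils) of all genes with enough UMIs were past 2-fold in the classes of these 45 pairs. The 7 lower pairs were Pgf in 4 classes and Vegfa in 3, and the 2 higher were Vegfc in osteoclasts and Nrp2 in conventional dendritic cells. Pgf was lower in all 5 classes with enough UMIs and Adm in all 3, whereas Vegfa was lower in 9 of 12. In the classes of the 45 pairs, 32.5% (T cells) to 56.6% (C1q macrophages) of all genes had a ratio above 0.

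In cartilage, Vegfa was close between the libraries while Pgf and Adm were lower in GC. Hypertrophic chondrocytes held 1083 CPM of Vegfa in control (597 cells) and 1203 CPM in GC (484 cells), a log2 ratio of 0.15, and chondrocytes 670 and 623 CPM (1911 and 2341 cells), a log2 ratio of -0.11. Both libraries thus kept cartilage as the class with the most Vegfa. Pgf was at 33.2 CPM in control and 10.3 CPM in GC in hypertrophic chondrocytes, a GC over control ratio of 0.311 (0.231 to 0.412) and a log2 ratio of -1.32. In chondrocytes it was at 15.7 and 5.28 CPM, a ratio of 0.335 (0.281 to 0.398) and a log2 ratio of -1.01. Among all genes, 0.311% in hypertrophic chondrocytes and 0.551% in chondrocytes were 2-fold lower. Adm was at 94.1 and 50.9 CPM in hypertrophic chondrocytes (ratio 0.540, 0.472 to 0.618) and at 51.2 and 24.5 CPM in chondrocytes (ratio 0.478, 0.440 to 0.519), log2 ratios of -0.83 and -0.93, short of 2-fold on this scale. The median over all genes was 0.02 in both classes. The libraries filled the hypertrophic clusters unequally, with 159 control and 18 GC cells in cluster 5.2 and 9 and 120 in cluster 5.4. Cluster 15 held 129 and 157, at a median of 835.5 UMIs, against 14670 to 22111 UMIs in the other hypertrophic clusters. Median depths of hypertrophic chondrocytes were 16073 UMIs in control and 10727 in GC.

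Chondrocytes of the libraries fell largely into different clusters, and their median depths were 25570 UMIs in control and 7932 in GC. Cluster 2, led by the hypertrophic chondrocyte marker Col10a1, held 8 control and 1163 GC cells. Its median depth was 2512 UMIs, against 16070.5 to 34957 UMIs in the other chondrocyte clusters. Cluster 5.1, also led by Col10a1, held 18 and 160, and cluster 12, led by Ucma, held 443 and 21. The class ratios thus compare unlike mixes of cartilage cells and of depths, and whether depth set these clusters apart was not tested. Clusters 6 (also led by Col10a1), 8 and 10 held both libraries in numbers. In those mixed clusters Pgf was lower in GC each time, at 10.5 and 5.12 CPM in cluster 6, 13.7 and 9.32 CPM in cluster 8, and 17.4 and 4.90 CPM in cluster 10. Adm was lower in clusters 6 (70.7 and 17.7 CPM) and 8 (54.0 and 20.5 CPM) but not in cluster 10 (12.2 and 11.7 CPM). With each cell weighted equally, the log2 ratio of Adm in chondrocytes was -0.33, and over clusters shared by both libraries that of Pgf was -0.79. Nrp1, at 51.8 and 31.9 CPM, had a log2 ratio of -0.62 in chondrocytes and Nrp2, at 37.8 and 54.1 CPM, one of 0.47. Kdr in chondrocytes came to 34 UMIs in control and 94 in GC, and 22 of the 94 lay in 28 GC cells with at least 3 endothelial markers.

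**Figure D2:**
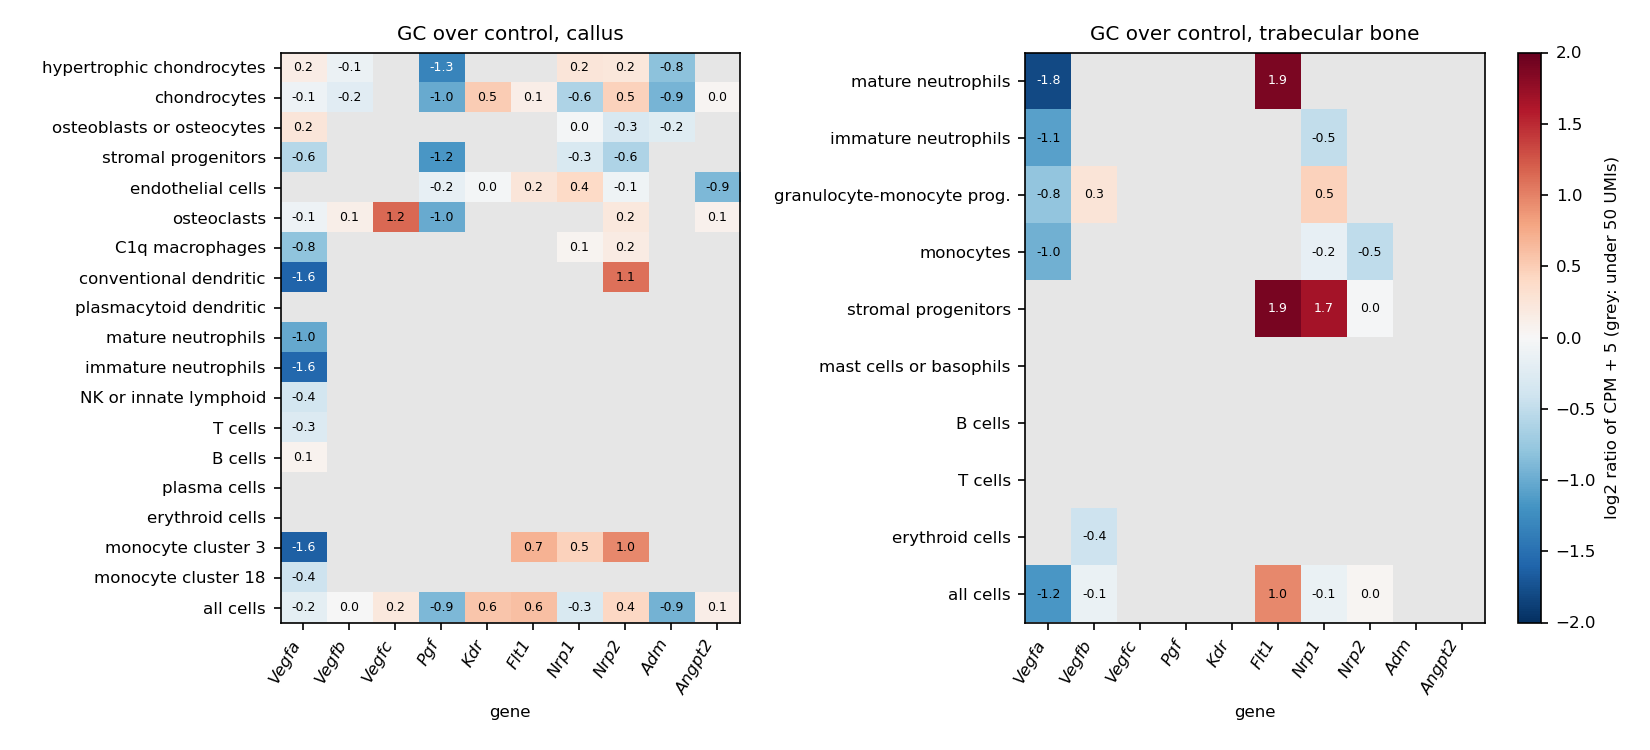
Log2 ratio of GC over control (CPM + 5) for the 10 genes (columns) in each class (rows) of callus, left, and trabecular bone, right, with all cells in the last row. Grey fields had under 50 UMIs over both libraries. Pgf and Adm are blue down their columns in callus, the endothelial row is pale except for Angpt2 at -0.89, and Vegfa is blue in the blood-lineage rows with enough UMIs of both tissues except callus B cells, at 0.08.

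Outside cartilage, Pgf was at 24.4 CPM in control and 8.12 CPM in GC in stromal progenitors (148 and 109 cells; ratio 0.333, 0.158 to 0.642; log2 ratio -1.16). In osteoclasts (110 and 123 cells) it was at 44.0 and 19.4 CPM (ratio 0.441, 0.297 to 0.644; log2 ratio -1.01). Of all genes, 1.19% and 0.999% were 2-fold lower in these classes. The ratio of stromal progenitors rested on 69 UMIs and was -0.10 as a mean over cells, and that of osteoclasts was -0.13 after thinning. Vegfc, the lymphatic ligand, was at 24 UMIs in control and 63 in GC, the latter 30.6 CPM, in osteoclasts (ratio 2.78, 1.71 to 4.65; log2 ratio 1.15), where 0.671% of all genes were 2-fold higher. After thinning its log2 ratio was -0.10. Nrp2 in osteoclasts was at 764 and 884 CPM, a log2 ratio of 0.21, and Vegfb at 63.2 and 68.9 CPM, one of 0.11. In osteoblasts or osteocytes (87 and 144 cells) Vegfa was at 394 and 468 CPM, Nrp2 at 402 and 320 CPM and Adm at 24.0 and 19.6 CPM, with log2 ratios of 0.24, -0.32 and -0.24. In stromal progenitors Vegfa was at 379 and 255 CPM and Nrp2 at 372 and 241 CPM, log2 ratios of -0.56 and -0.61.

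In endothelial cells the receptors were close between the libraries. Kdr was at 947 CPM in the 53 control cells and 923 CPM in the 80 GC cells (ratio 0.974, 0.845 to 1.12), and Flt1 at 1002 and 1188 CPM (ratio 1.19, 1.04 to 1.35). The counting intervals of both receptors thus reached at most 1.35-fold, and they leave out the spread between mice and between libraries. Nrp1 was at 277 and 366 CPM (ratio 1.32, 1.03 to 1.69), Nrp2 at 429 and 402 CPM, and Pgf at 116 and 103 CPM. Angpt2, which tip cells secrete, was at 137 and 71.7 CPM (58 and 30 UMIs; ratio 0.522, 0.324 to 0.825), a log2 ratio of -0.89. None of the 6 members with enough UMIs was past 2-fold, where 3.52% of all genes were. Over all callus cells Kdr was at 5.84 and 10.9 CPM and Flt1 at 10.3 and 18.1 CPM, log2 ratios of 0.55 and 0.60. Endothelial cells were 0.790% and 1.16% of the cells. With the class shares of control given to both libraries, unnamed cells counted as a class, the ratios were 0.27 and 0.28. In totals of 79813451 and 54486010 UMIs, Kdr came to 400 and 386 UMIs in endothelial cells, 34 and 94 in chondrocytes, and 4 and 63 in unnamed cells. Flt1 came to 423 and 497, 238 and 169, and 2 and 150 UMIs in these cells. The part of each in the ratios was not tested.

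Partners of these genes were taken from a list of 25. In endothelial cells 19 had enough UMIs, with a median log2 ratio of -0.11 against 0.00 for all genes, and 2 were past 2-fold, both lower in GC, as were 2.08% of all genes. They were Angptl4, at 249 and 47.8 CPM, a secreted lipase inhibitor that low oxygen and fasting induce, and Esm1, at 216 and 81.3 CPM, a proteoglycan of endothelial tip cells. Tek, the receptor of Angpt2, was at 144 and 227 CPM and its relative Tie1 at 249 and 421 CPM, log2 ratios of 0.63 and 0.75. Of 9 angiostatic factors, 4 had enough UMIs in endothelial cells and Thbs1 was 2-fold lower, at 530 and 210 CPM. In osteoclasts Calcrl, the receptor of adrenomedullin, was at 16.0 and 37.4 CPM. In stromal progenitors the angiostatic Tnmd was at 132 and 318 CPM and Sema3c, a ligand of neuropilins, at 39.1 and 96.7 CPM. Of all genes, 0.939% were 2-fold higher in these cells and 1.19% lower. Cnmd, a cartilage factor that repels vessels, was at 280 and 70.2 CPM there. It was also 2-fold lower in callus mature neutrophils and monocyte cluster 3. The part of cartilage RNA from other cells in these values was not tested.

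In blood-lineage cells of the callus Vegfa was lower in the GC library. Mature neutrophils held 378 CPM in control (1558 cells) and 183 CPM in GC (1211 cells), a ratio of 0.484 (0.419 to 0.558) and a log2 ratio of -1.03. Immature neutrophils held 209 and 66.7 CPM (ratio 0.319, 0.215 to 0.465), and conventional dendritic cells 317 and 101 CPM (ratio 0.318, 0.203 to 0.483), log2 ratios of -1.58 and -1.61. Of all genes, 3.44%, 5.3% and 3.97% were 2-fold lower in these classes. In the dendritic cells Nrp2 was at 52.9 and 119 CPM (53 UMIs in all), a ratio of 2.25 (1.25 to 4.13) and a log2 ratio of 1.10, where 3.16% were 2-fold higher. After thinning, which left fewer UMIs, the log2 ratio was -0.73. The smaller differences were in C1q macrophages at 361 and 203 CPM, NK or innate lymphoid cells at 556 and 428 CPM and T cells at 107 and 87.2 CPM. B cells, at 65.3 and 69.2 CPM, did not separate (ratio 1.06, 0.723 to 1.53), and the median log2 ratio over all genes was -0.16 in B cells and -0.17 in T cells. Monocytes were not compared as a class because of the uncertain name of cluster 3. That cluster held 720 CPM in 502 control cells and 228 CPM in 460 GC cells (log2 ratio -1.64, where 2.29% of all genes were 2-fold lower), and cluster 18 held 239 and 178 CPM.

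The class ratio of mature neutrophils combined 2 clusters that the libraries filled unequally. Cluster 0, with 1366 control and 90 GC cells, held 400 and 174 CPM of Vegfa, whereas cluster 1, with 192 and 1121 cells, held 203 and 184 CPM. With finer clusters the class ratio was -0.13, and it was past 2-fold in 6 of 11 alternatives, against 11 of 11 for immature neutrophils, dendritic cells and cluster 3. Of mature neutrophils with at least 1000 UMIs, 26.7% in control and 13.9% in GC held a Vegfa UMI after thinning, against 6.62% and 5.73% of such B cells. Median depths over all cells of these classes were 1269, 1135, 1918.5 and 1682.5 UMIs. Cartilage RNA in the blood-lineage cells was also lower in the GC library. The summed level of the 11 chondrocyte markers in mature neutrophils was 5178 CPM in control and 2451 CPM in GC, with 0 of 11 markers at 0, and in B cells, whose Vegfa did not separate, it was 4275 and 1844 CPM. Over the 10 blood-lineage classes and clusters it ranged from 2898 to 5178 CPM in control and from 843 to 2451 CPM in GC, with at most 1 marker at 0, against 101793 and 73496 CPM in chondrocytes. Its part in the Vegfa values was not tested. The GC callus matrix holds called barcodes only, so its empty droplets could not be compared.

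**Figure D3:**
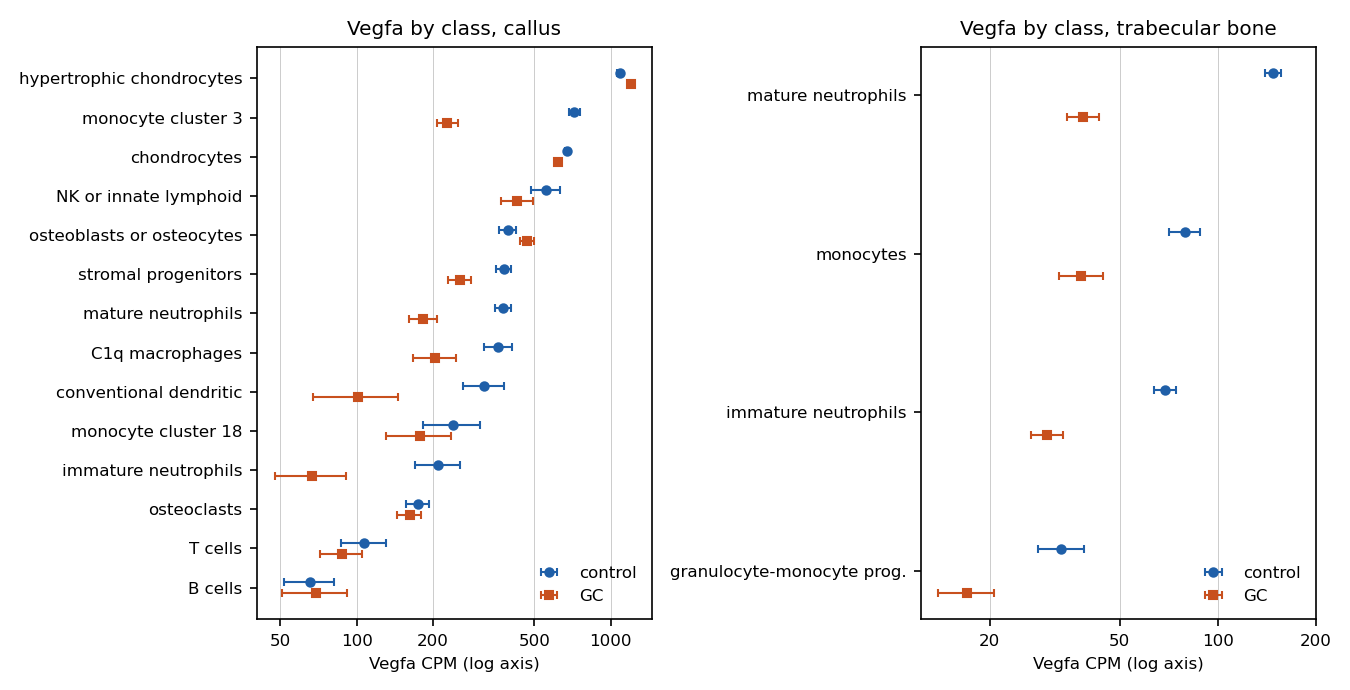
Vegfa level on a log axis in control (circles) and GC (squares), for classes and monocyte clusters of callus, left, and classes of trabecular bone, right, with at least 50 UMIs. Bars are 95% Poisson intervals for counting error in 1 library per condition. In callus the cartilage points lie close together while monocyte cluster 3 goes from 720 to 228 CPM, and in trabecular bone all 4 GC points lie to the left of control.

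The trabecular libraries held no cartilage or endothelial class, and 14 of 90 pairs of a class and a gene had enough UMIs. Of these 3 were past 2-fold higher and 2 lower in GC, where 0.438% (granulocyte-monocyte progenitors) to 15.9% (stromal progenitors) of all genes were past 2-fold in the classes of these 14 pairs, and both lower ones were Vegfa. Mature neutrophils held 148 CPM of Vegfa in control (1563 cells) and 38.7 CPM in GC (2017 cells), a ratio of 0.262 (0.231 to 0.297) and a log2 ratio of -1.80. This class had a median log2 ratio over all genes of 0.28, so that with scaling by the median the ratio was -2.13, and 0.75% of all genes were 2-fold lower. Immature neutrophils held 68.9 and 29.96 CPM (ratio 0.435, 0.380 to 0.498; log2 ratio -1.08, where 0.211% were 2-fold lower). Monocytes held 79.3 and 38.2 CPM and granulocyte-monocyte progenitors 33.1 and 17.0 CPM, log2 ratios of -0.97 and -0.79. Over all trabecular cells Vegfa was at 75.6 and 30.8 CPM (log2 ratio -1.17, where 0.568% were 2-fold lower), and -1.28 with the class shares of control in both libraries.

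Vegfa was thus lower in all 4 classes with enough UMIs, but the mature neutrophils of the libraries hardly shared clusters. Control cells lay in clusters 0 and 1 and GC cells in clusters 2, 3 and 7. In cluster 1, with 699 control and 85 GC cells, Vegfa was at 112 and 27.8 CPM, and clusters 2, 3 and 7 held 32.0, 44.9 and 56.5 CPM in GC. The log2 ratio stayed between -2.13 and -1.51 over 13 alternatives. For immature neutrophils it was -0.71 over shared clusters. The empty droplets held 55.9 CPM of Vegfa in control and 35.4 CPM in GC, so the GC neutrophils were near that level and the control neutrophils above it. After thinning, 11.3% of control and 3.82% of GC mature neutrophils held a Vegfa UMI, against 0.613% of B cells, and without thinning 21.4% of the class and 6.91% of B cells did. Median depths were 4782 and 3684 UMIs in the neutrophils and 3441 in B cells.

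Flt1 was found in trabecular mature neutrophils of GC and not of control. Mature neutrophils held 0 Flt1 UMIs of 7819460 in control and 112 UMIs in GC, 13.5 CPM in 76 of 2017 cells, a log2 ratio of 1.88. The GC level was 35.1-fold a control level of 3 UMIs (0.384 CPM), a value that leaves out the counting error of the GC UMIs. Of all genes, 3.38% were 2-fold higher in that class. Of the 112 UMIs, 82 lay in cluster 7 and 27 in cluster 3, which held 1 control cell each, so the condition and the cluster cannot be told apart. In clusters 0 and 1, where the control cells lay, the 37 and 85 GC cells also held 0. No cell of the class carried 3 endothelial markers, and Kdr was at 0 in both libraries. In each library 5 of the 10 endothelial markers were at 0, though not the same 5. In callus, mature neutrophils held 17 and 27 Flt1 UMIs, 8.30 and 19.2 CPM, under the 50 UMIs needed. Monocytes of trabecular bone held 3 and 17 Flt1 UMIs.

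Of the co-receptors, Nrp1 in monocytes was at 68.2 and 60.2 CPM, a log2 ratio of -0.17, and Nrp2 there at 12.1 and 7.02 CPM. Nrp1 in immature neutrophils was at 15.01 and 9.21 CPM and in granulocyte-monocyte progenitors at 8.11 and 12.99 CPM. The stromal progenitors were 16 control and 44 GC cells, with Flt1 at 10 and 88 UMIs and Nrp1 at 6 and 46, log2 ratios of 1.91 and 1.67 (0.44 for Flt1 as a mean over cells), where 8.05% of all genes were 2-fold higher. However, 10 of 10 and 85 of 88 Flt1 UMIs lay in 3 and 5 cells with at least 3 endothelial markers, as did 22 of the 46 Nrp1 UMIs of GC. Nrp2 in these cells was at 225 and 222 CPM. Pgf, Vegfc, Adm, Angpt2 and Kdr came to 9 to 24 UMIs over the kept cells of each trabecular library, apart from Adm in GC with 5.

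Because Vegfa and Adm are targets of hypoxia-inducible factor, 21 genes of the hypoxia response were set beside them. Among all genes of callus chondrocytes 53.5% had a ratio above 0. In the same cells 16 of 21 had a ratio below 0, 6 were 2-fold lower, as were 0.551% of all genes, and the median was -0.53, against 0.02 for all genes. The 6 were Egln3, which marks hypoxia-inducible factor for decay, the glycolytic regulator Pfkfb3 (140 and 49.1 CPM), the oxidase Ero1l (215 and 85.2 CPM), and Ndrg1, Ddit4 and Ankrd37. Vegfa, at -0.11 in the same cells, lay above the median of the list, and Adm, at -0.93, below it. The median was -0.17 as a mean over cells and -0.23 after thinning. In hypertrophic chondrocytes 17 of 20 were below 0, while 53.1% of all genes were above 0. None of the 20 was 2-fold lower and the median was -0.35. In mature neutrophils of callus 9 of 18 were 2-fold lower, as were 3.44% of all genes, and the median was -0.995 against 0.0065 for all genes, with Vegfa at -1.03. Among them Egln3 was at 193 and 32.0 CPM and Ero1l at 177 and 47.7 CPM. The libraries filled the clusters of this class unequally, and the list was not examined by cluster. In monocyte cluster 3 the median was -0.60 and 5 of 18 were 2-fold lower, among them Slc2a1, the glucose carrier, at 244 and 80.5 CPM. Ndrg1 was 2-fold higher there. Of all genes in that cluster, 2.29% were 2-fold lower and 2.36% higher. Callus T cells were at -0.57 (10 of 13 below 0) and B cells at -0.33 (11 of 13). The medians over all genes were -0.17 and -0.16 there, and only 32.5% and 35.2% of all genes had a ratio above 0. Monocyte cluster 18 was at 0.18.

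In trabecular mature neutrophils Vegfa was past 2-fold lower and no hypoxia response gene was. Of 17 with enough UMIs none was 2-fold lower, and Pfkfb3 was 2-fold higher (22.1 and 59.4 CPM). However, 12 of the 17 had a ratio below 0, while 78.5% of all genes had one above 0. The median was -0.11 against 0.28 for all genes, while Vegfa was at -1.80. In trabecular monocytes, immature neutrophils and granulocyte-monocyte progenitors the medians were -0.03, -0.01 and 0.06. A list of 9 genes that glucocorticoids are known to induce was set beside these values. In trabecular mature neutrophils 5 of 8 were 2-fold higher, as were 3.38% of all genes, with a median of 2.14 against 0.28 for all genes, among them Fkbp5 at 11.9 and 111 CPM, Klf9 at 9.98 and 124 CPM and Tsc22d3 at 73.4 and 245 CPM. In callus chondrocytes the median of this list was 0.37, with Sgk1 at 528 and 1129 CPM and Dusp1 at 213 and 438 CPM 2-fold higher, as were 0.324% of all genes. In callus mature neutrophils it was 0.18, with Klf9 2-fold higher, as were 4.52% of all genes, and Dusp1 2-fold lower. Hypertrophic chondrocytes were at 0.72 (9 genes with enough UMIs) and C1q macrophages at 0.80 (6 genes). Conventional dendritic cells of callus were at -0.16 (3 genes) and immature neutrophils at -1.11 (5 genes). In the latter Per1, Mt1 and Mt2 were 2-fold lower, as were 5.3% of all genes.

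**Figure D4:**
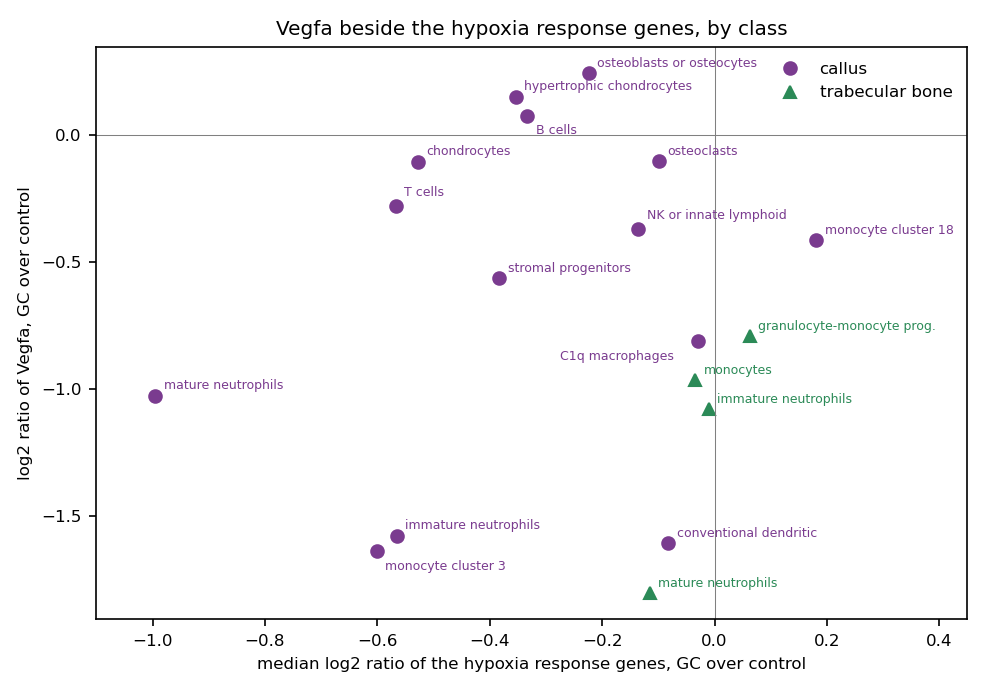
Log2 ratio of Vegfa, GC over control (vertical axis), beside the median log2 ratio of the hypoxia response genes with at least 50 UMIs (horizontal axis), 1 point per class or monocyte cluster (circles callus, triangles trabecular bone). Callus mature neutrophils lie at -1.03 and -0.995 and conventional dendritic cells at -1.61 and -0.083, so the callus points do not follow 1 line. The trabecular classes lie near 0 on the horizontal axis with Vegfa between -1.80 and -0.79. The median over all genes, 0.28 in trabecular mature neutrophils, is not taken off.

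The pattern of each gene over callus classes was set beside that of 12296 other genes, by the correlation of log2(CPM + 5) over 36 pairs of a class and a library, which share libraries and depth. Vegfa was most like Metrnl (r = 0.85), Trps1 and Bnip3. Adm was most like Ccn2 (r = 0.87), Lmcd1 and Rhod, and Pgf like Akr1b8 (r = 0.87), Hyal2 and Arhgap29. The receptors were close to endothelial genes. Kdr was most like Plvap (r = 0.97), Cdh5 and Sox7, of which the first 2 are endothelial markers that also named the class, and Flt1 like Fabp4 (r = 0.94), F11r and Aplnr. Nrp2 was most like Nav1 (r = 0.92), Fmn1 and Rai14, Nrp1 like Bmpr2 (r = 0.84), Selenop and Nfic, Angpt2 like Scarf1 (r = 0.92), Tbkbp1 and Chst7, and Vegfb like Cluh (r = 0.80) and the mitochondrial Atp5g3 and Uqcrc1.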

How the data were processed

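The authors aligned reads to mm10 with Cell Ranger (5.0.1 per the labels, while the file headers name version 4) and deposited counts of UMIs per gene and barcode, as 10x matrices. The labels also name Seurat 3.2.0. The control callus and both trabecular matrices list every barcode and the GC callus matrix only called ones, so barcodes of the other 3 were called here, by a depth cutoff (10% of the 99th percentile of the top 3000) or, from 500 UMIs, by difference from the empty droplets at an FDR of 0.01. Totals were 95852254, 64388215, 41239842 and 45876714 UMIs (control and GC callus, control and GC trabecular bone). Cells with under 200 genes or over 10% mitochondrial UMIs were left out, and doublets were removed by simulated-doublet scores at 0.8% per 1000 cells (404, 428, 123 and 183 cells).

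Cells of a tissue were clustered together (2000 variable genes, 30 components, 15 neighbors, Leiden resolution 1) without 74 genes of the lists described (75 rows, since Aldoa has 2), and named from 203 markers of 24 classes. A name needed at least 3 markers, the rule was refined after the clusters were seen, and other cells stayed unnamed. Within a class UMIs were summed per library. Intervals are exact Poisson (levels), exact conditional (ratios) and Clopper-Pearson (shares), at 95%. PCR duplicates are merged by UMIs, and mouse-to-mouse spread is not measured. Ratios are log2 of (CPM + 5) and need 50 UMIs over both libraries. Classes of at least 15 cells per library were compared. All 10 members were named, with up to the 5 genes of most UMIs among those of a list past 2-fold in a class, and the 3 most alike genes among those with at least 200 UMIs (for members with at least 200 themselves). Tek, Tie1, and Egln3 in chondrocytes were named outside this rule, after their values were seen. The scripts were tested on simulated data. The members and lists were chosen with earlier results of these data known. Promoter windows came from RefSeq, and gene positions from GENCODE M21. Clusters were made with leidenalg 0.10.2 on igraph 0.11.9 after components from scikit-learn 1.9.0, intervals with scipy 1.17.1, tables with pandas 2.3.3 and numpy 2.4.6, and plots with matplotlib 3.10.9, all under Python 3.11.15.

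Alternatives covered the pseudocount, the UMI minimum, scaling, means over cells, thinning, doublets, the mitochondrial limit, cell calling, resolution and class shares. A restriction to clusters shared by both libraries and the removal of cells with at least 3 endothelial markers were added after seeing the data.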

Additional observations from a re-analysis of the deposited data

Results flagged for a closer look

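These are levels in cells that entered no comparison within a class, above the level in B cells of the same tissue. The values over all callus cells include these cells. In the GC callus, 401 cells stayed unnamed. Cluster 24.0 held 57 of them, with Vegfa at 646.5 CPM (598 to 697), Kdr at 50.3 CPM, Flt1 at 104 CPM, Nrp1 at 53.2 CPM and Nrp2 at 143 CPM, against 69.2 CPM of Vegfa, 1.47 CPM of Kdr, 4.41 CPM of Flt1, 0 of Nrp1 and 7.36 CPM of Nrp2 in GC B cells. Cluster 24.1 held 40 cells, with Vegfa at 553 CPM and Nrp2 at 149.8 CPM. Cluster 24.0 had near-equal markers of endothelial cells and chondrocytes, and cluster 24.1 of granulocyte-monocyte progenitors and chondrocytes. Their median depths were 15579 and 9960 UMIs, against 3257.5 UMIs in the GC callus library. Whether doublets remained among these cells was not tested. Of the 401 unnamed cells, 56 carried at least 3 endothelial markers, and they held 115 of 150 Flt1 and 50 of 63 Kdr UMIs.

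Callus mast cells or basophils, 31 cells over both libraries, held Vegfa at 631 CPM and Vegfc at 109 CPM (15 UMIs). Pericytes or smooth muscle cells, 21 in all, held Nrp1 at 280.3 CPM, Pgf at 109.9 CPM and Angpt2 at 87.9 CPM, from 51, 20 and 16 UMIs.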

How the results depend on the processing

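No paired analysis was possible because each group had 1 library. Of 16 ratios past 2-fold, 188 alternative values were computed, of which 185 had the same sign and 156 were still past 2-fold. Thinning to 1000 UMIs reversed Vegfc in osteoclasts (-0.10) and Nrp2 in conventional dendritic cells (-0.73). The log2 ratio of Vegfa in callus chondrocytes was -0.14 with size factors, -0.075 with doublets kept, -0.32 at Leiden resolution 2 and -0.014 over shared clusters. Pgf there was -1.42 and -0.50 with pseudocounts of 1 and 20 CPM and -0.79 over shared clusters. Adm was -1.04 and -0.68 with those pseudocounts, -0.33 as a mean over cells, -0.78 thinned, -1.06 for cells over the depth cutoff and -1.11 over shared clusters. The hypoxia median in chondrocytes was -0.17 over cells, -0.23 thinned, -0.40 at resolution 2 and -0.33 over shared clusters. Vegfa in hypertrophic chondrocytes was 1011 CPM over cells, 1060 CPM less the B cell level, and 966 and 1151 CPM at resolutions 0.5 and 2. Over all callus cells Vegfa was -0.26 with size factors, -0.27 over cells, -0.26 thinned, -0.15 with doublets, -0.14 over the cutoff, -0.089 at fixed class shares and -0.16 over all barcodes. Monocyte cluster 3 was -2.22 over the cutoff and -1.47 at resolution 2. The 9 callus pairs past 2-fold became 2 with 20 CPM, 20 with no minimum, 4 over cells, 2 thinned and 17 at resolution 2. In trabecular mature neutrophils Vegfa was -1.51 with 20 CPM, -2.13 with size factors, -1.62 thinned and -1.99 at resolution 0.5, and its control level was 166 CPM over cells, 128 CPM less the B cell level, 129.7 CPM over the cutoff, 173 CPM at resolution 0.5 and 112 CPM over shared clusters. Over all trabecular cells Vegfa was -1.27 and -0.91 with pseudocounts of 1 and 20 CPM, -1.44 over cells, -1.35 thinned and -1.28 at fixed class shares. The 5 trabecular pairs became 3 with 20 CPM, 9 with no minimum, 2 thinned, 3 at 5% mitochondrial UMIs and 2 over the cutoff. The cause of these shifts was not tested. With 1 library per group, leaving out a replicate was not possible.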
